A study of Mus musculus with 8 samples.

Results

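The set described here was Trp53, the gene for the tumor suppressor p53, together with 34 genes that p53 is known to switch on directly or that hold it in check. Members were chosen by gene symbol from knowledge of the pathway, with earlier results of these data known. All 35 were found among the 24419 genes of the deposited count table. The tumors came from a mouse system of endometrial cancer, in which uterus organoids of female CAG-Cas9-EGFP mice (8 to 10 weeks old) were edited with viral vectors and then placed in the left uterus of female nude mice (BALB/cA-nu, 8 weeks old). All 4 models received a lentiviral sgRNA against Trp53 and share a further edit that is not named here. TPM also carried a retroviral Myc cDNA, TPMCa (TPMPik3ca in the labels) added a Pik3ca E545K cDNA to TPM, and TPMR1 (TPMPik3r1 in the labels) added an sgRNA against Pik3r1 to TPM. TPK carried another retroviral oncogene, not named here, and no Myc cDNA. Each model had 2 libraries, and all came from models given the Trp53 guide, so no model without that guide entered any comparison. The question these comparisons can address is how much the target genes differ between tumors that share the Trp53 guide. Cas9 was driven by the CAG promoter in all donor cells, and the cDNAs by a retroviral vector. The labels describe organoids cultured from the models, whereas the study's methods say that RNA came from tumors of mice killed some 2 months after the cells were placed. Host stroma, vessels and innate immune cells, which were not given the guide, could therefore add reads. In bulk RNA a lower count from fewer cells of a type cannot be told apart from less RNA per cell.

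The p53 protein is a transcription factor that is kept scarce by the ubiquitin ligase Mdm2 and its partner Mdm4. After DNA damage or oncogene stress it accumulates, binds DNA as a tetramer and switches on genes that halt the cell cycle, start apoptosis, repair DNA and adjust metabolism. Mdm2 is itself a target, which closes a feedback loop. Many of these genes also have p53-independent expression. Perp, for example, is a target of the p53 relative p63 in stratified epithelium.

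Sequences are shown to place the edit and the motif by which p53 recognises its targets. The Trp53 guide used in the study matched Trp53 in GRCm38 at chr11:69587439-69587457 on the plus strand, in exon 4, which codes for protein. Its predicted cut lies at codon 60 of 387 in transcript ENSMUST00000005371 and at codon 63 of 390 in ENSMUST00000108658. Capitals mark the PAM.
Trp53 sgRNA target: gtgaagccctccgagtgtcAGG
RefSeq promoter windows of GRCm38.p6, from 250 bases before to 50 bases after each annotated start, were available for 27 of the 35 members. The 10-base p53 consensus motif, which reads alike on both strands, was found in 11 of the 27 (40.7%), compared to 9.55% of 27025 genes. A pair of motifs at most 13 bases apart was found in Cdkn1a and in 0.074% of all genes. The 7 motifs below come from windows of the best-known targets and of members whose level differed between models. Capitals mark the motif, and the coordinates are those of the capitals. They are Cdkn1a at chr17:29090906-29090915 and chr17:29090928-29090937, Mdm2 at chr10:117710935-117710944, Trp53 at chr11:69580284-69580293, Bax at chr7:45467090-45467099, Aen at chr7:78895937-78895946 and Sesn1 at chr10:41887266-41887275.
Cdkn1a upstream motif: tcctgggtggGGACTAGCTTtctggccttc
Cdkn1a downstream motif: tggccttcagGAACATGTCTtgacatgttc
Mdm2: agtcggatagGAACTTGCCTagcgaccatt
Trp53: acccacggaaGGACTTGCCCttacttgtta
Bax: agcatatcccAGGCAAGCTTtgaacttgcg
Aen: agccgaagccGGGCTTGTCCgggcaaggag
Sesn1: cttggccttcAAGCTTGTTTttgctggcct
The windows of Phlda3 and Dram1 held no match, which says only that these letters are absent from those 300 bases. Neither a match nor its absence shows whether p53 binds there.

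Libraries held 15748396 to 26943611 counts, so that 3 counts, taken as the detection floor, correspond to 0.116 to 0.198 CPM (counts relative to a library total scaled by the TMM factors of edgeR). The 35 members took 0.136% to 0.332% of all counts and all 35 passed the filter on low counts, among 15875 genes tested. General epithelial and squamous markers set the models apart. The summed level of 7 general epithelial genes was 3282 to 5978 CPM in the TPM and TPK libraries and 6.52 to 75.3 CPM in the TPMCa and TPMR1 libraries, with none of the 7 at 0 counts. That of 9 squamous genes was 5523 to 20789 CPM compared to 1.35 to 6.77 CPM, with 1 to 6 of the 9 at 0 counts in the TPMCa and TPMR1 libraries. TPMR1 also stood apart by the sum of 9 genes of gonadal and steroid-producing cells. It was 5210 and 729 CPM in the TPMR1 replicates and 13.4 to 38.7 CPM elsewhere. Much of that sum came from Cyp11a1, at 3752 and 181 CPM in TPMR1, and Nr5a1, at 750 and 148 CPM. The TPMR1 libraries overlapped those of other models in Amh (0.733 and 2.61 CPM) and Foxl2 (0.308 and 33.1 CPM). In edgeR 2 of the 9 passed in TPMR1 against TPM (5.58% of all genes) and 0 against TPMCa (0% of all genes). Sums of 5 uterine gland genes overlapped, at 76.5 to 372 CPM in TPM and TPK and 21.0 to 159 CPM in TPMCa and TPMR1. Among these 5, Foxa2, Pax8 and Spdef were at 0.696 CPM or below in TPMCa and TPMR1 and at 5.20 CPM or above elsewhere. Esr1 and Pgr overlapped. The libraries labelled TPMCa and TPMR1 thus showed little RNA of the general epithelial and squamous genes.

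**Figure D1:**
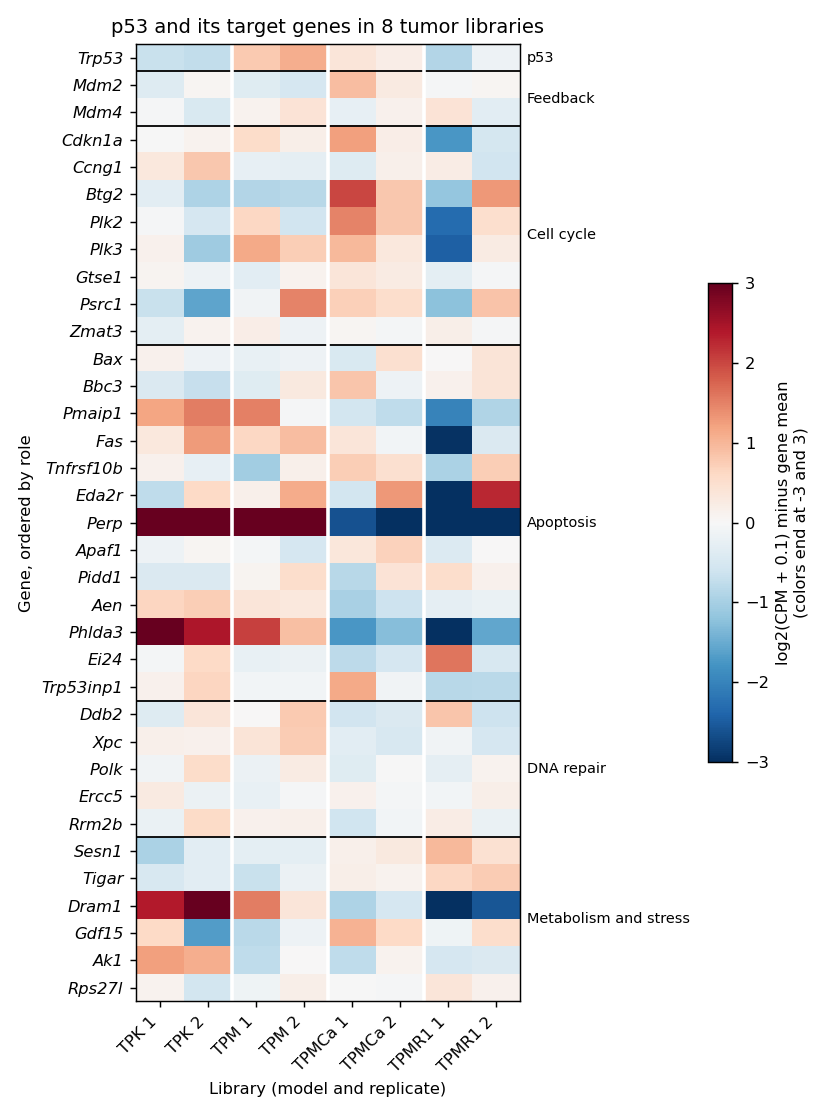
Heat map of the 35 genes (rows, grouped by role) in the 8 libraries (columns); color is log2(CPM + 0.1) minus the mean of the gene over the libraries, with colors ending at -3 and 3. Perp, Phlda3 and Dram1 are red in TPK and TPM and blue in TPMCa and TPMR1, TPMR1 replicate 1 is the bluest library for Plk2 and Plk3, and rows such as Zmat3, Ercc5 and Rps27l stay pale.

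The spread of the members between the models ranged widely. The highest model mean exceeded the lowest by under 2-fold in 15 members, by 2- to 4-fold in 14 and by over 4-fold in 6, which were Perp, Dram1, Phlda3, Pmaip1, Btg2 and Fas. The median was 2.31-fold in the set and 2.43-fold over all genes tested, and over 4-fold differences made up 17.1% of the members and 34.0% of all genes. In the edgeR quasi-likelihood test for any difference between the 4 models, 5 of the 35 members had an adjusted p under 0.05, where 7.32% of all genes did. They were Dram1 (adjusted p = 0.0104 from edgeR), Perp (adjusted p = 0.0315), Phlda3 (adjusted p = 0.0368), Aen (adjusted p = 0.0411) and Trp53 (adjusted p = 0.0491). At an unadjusted p under 0.05 there were 12 members, compared to 27.9% of all genes. The number of members that passed changed when 1 library at a time was left out, and so did the share of all genes that passed. Without either library of TPK, TPM or TPMCa the test passed Dram1 alone or, without TPK replicate 2, no member.

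Trp53 was itself among the genes that differed. It lies at chr11:69580359-69591873. Its level was 106 and 131 CPM in TPM, 78.4 and 70.2 CPM in TPMCa, 33.1 and 55.1 CPM in TPMR1, and 38.3 and 36.9 CPM in TPK. Both TPM libraries were above every library of the other models, and both TPMCa libraries were above every TPMR1 and TPK library, whereas TPMR1 and TPK overlapped. Trp53 mRNA fell in TPMR1 compared to TPM by 1.42 on the log2 scale (SE 0.31, adjusted p = 0.0478 from edgeR), from 118 ± 17.2 to 44.1 ± 15.6 CPM (SD, n = 2). The call held in 1 of the 8 fits that left out a library, with adjusted p up to 0.217 without TPM replicate 2, and in 4 of all 15 alternative fits. In TPK against TPM the log2 difference was -1.65 (SE 0.31), and it did not pass (adjusted p = 0.653 from edgeR), although DESeq2 gave an adjusted p of 0.00138. In TPMCa the value against TPM was -0.67 (SE 0.30, adjusted p = 0.249 from edgeR). Small insertions or deletions made by Cas9 need not remove the transcript, so the read counts do not show whether a cell carried the edit. The study itself reported Trp53 mutation in edited organoids by a T7 endonuclease assay. It also reported lower p53 protein staining in TPM and TPK tumors.

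Neither of the regulators of p53 in the set passed in any comparison in edgeR. Mdm2, the ubiquitin ligase that is both repressor and target, was at 71.0 and 64.5 CPM in TPM, 175 and 110 CPM in TPMCa, 90.0 and 95.5 CPM in TPMR1, and 70.0 and 95.5 CPM in TPK. Both TPMCa libraries were above all others, and the log2 difference from TPM was 1.07 (SE 0.30, adjusted p = 0.110 from edgeR, 0.0215 from DESeq2). Mdm4, which binds and masks p53, lay between 75.6 and 138 CPM, and the models overlapped except that both TPK libraries were below both of TPM (log2 -0.50, SE 0.33, adjusted p = 0.773 from edgeR).

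Among the 8 cell cycle genes, none passed in any comparison by edgeR with all 8 libraries. Cdkn1a, which encodes the cyclin-dependent kinase inhibitor p21 and is the best known target, lies at chr17:29090976-29100727. It was at 154 and 119 CPM in TPM, 249 and 121 CPM in TPMCa, 31.5 and 73.1 CPM in TPMR1, and 104 and 114 CPM in TPK. TPMR1 was below all other libraries, with a log2 difference of -1.38 from TPM (SE 0.49, adjusted p = 0.159 from edgeR) and -1.82 from TPMCa (SE 0.50, adjusted p = 0.376 from edgeR, 0.0308 from DESeq2). Btg2, an antiproliferative immediate early gene, was at 91.2 and 94.5 CPM in TPM, 669 and 294 CPM in TPMCa, 74.7 and 416 CPM in TPMR1, and 135 and 88.2 CPM in TPK. The TPMCa libraries exceeded both TPM libraries, at a log2 difference of 2.37 (SE 0.80, adjusted p = 0.157 from edgeR, 0.0231 from DESeq2). The stress-responsive kinases Plk2 and Plk3 were low in TPMR1 replicate 1, at 17.9 and 12.1 CPM, and at 127 and 78.9 CPM in replicate 2. Ccng1, the cyclin G1 gene, was higher in both TPK libraries (71.0 and 101 CPM) than in any other library (38.4 to 66.4 CPM), with a log2 value of 0.69 against the mean of TPMCa and TPMR1 (SE 0.31, adjusted p = 0.175 from edgeR). Psrc1, which acts on spindle microtubules, lay between 7.18 and 60.4 CPM. Gtse1, a G2 and S phase gene, lay between 18.9 and 30.2 CPM, and Zmat3, an RNA-binding target, between 32.3 and 45.8 CPM.

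**Figure D2:**
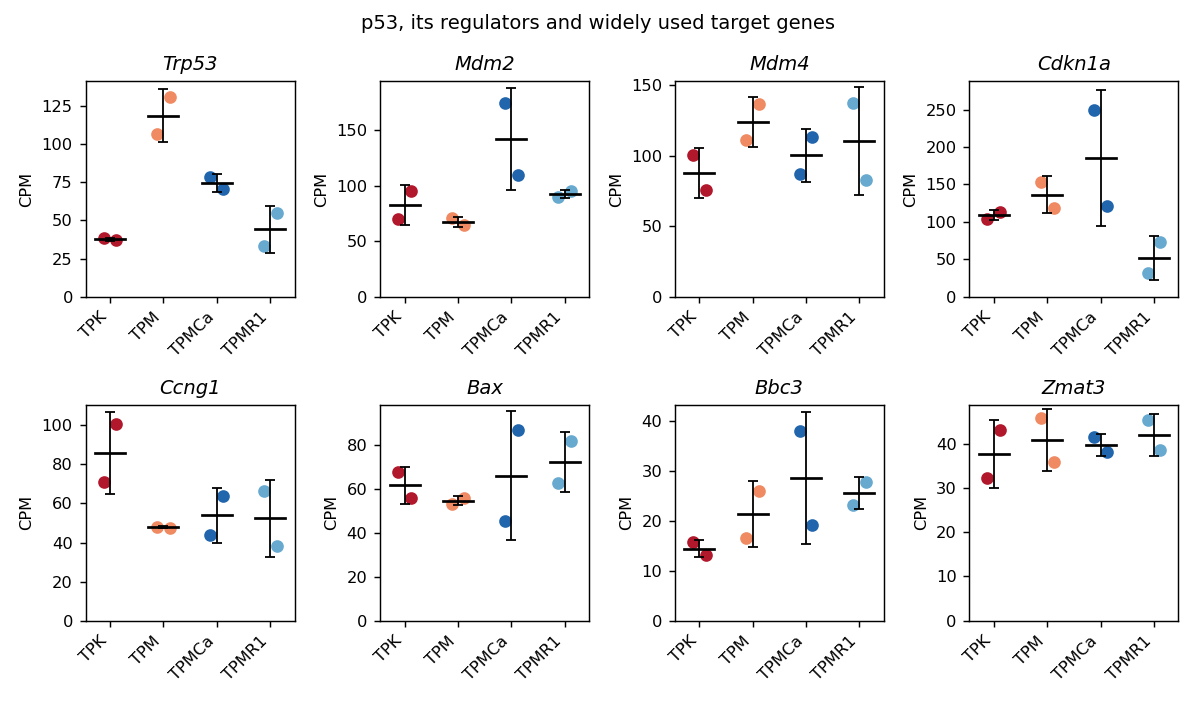
CPM (y axis, linear from 0) of Trp53, its regulators Mdm2 and Mdm4 and 5 widely used targets in each model (x axis); points are libraries, lines are the mean and bars the SD of 2 libraries. Trp53 is highest in TPM, Cdkn1a lowest in TPMR1, and Bax and Zmat3 lie at like levels in all models.

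Of the 13 apoptosis genes, 4 passed in TPK against the mean of TPMCa and TPMR1 (14.4% of all genes), and 1 of them, Perp, also passed in TPMR1 against TPM (5.58% of all genes). Perp, a desmosome-associated membrane protein of epithelia that also takes part in p53-dependent death, lies at chr10:18845020-18857073. It was at 1021 and 1155 CPM in TPK, 1556 and 712 CPM in TPM, 5.57 and 0.61 CPM in TPMCa, and 0.0771 and 2.28 CPM in TPMR1, where replicate 1 had 2 counts, under the floor. No library of TPK or TPM came near one of TPMCa or TPMR1. Perp fell in TPMR1 compared to TPM by 9.95 on the log2 scale (SE 1.82, adjusted p = 0.0311 from edgeR). It was higher in TPK than in the mean of TPMCa and TPMR1 by 9.18 (SE 1.28, adjusted p = 0.00710 from edgeR), and it remained past the threshold in all 15 alternative fits of that comparison. In TPMCa against TPM the value was -8.52 (SE 1.72), with an adjusted p of 0.0507 from edgeR and 1.17e-09 from DESeq2. The TPMR1 call was lost without either TPM library or either TPK library, with adjusted p up to 0.116 without TPM replicate 1. It was also lost when only the models compared were fitted (adjusted p = 0.116) and with the replicate block (adjusted p = 0.0630), as edgeR gave them. Perp marks epithelium in its own right, and its level moved with the 7 epithelial genes given above. The part of those cells in this result was not tested.

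Phlda3, which dampens Akt by competing for membrane lipids, lies at chr1:135766119-135769136. It was at 343 and 188 CPM in TPK, 144 and 65.5 CPM in TPM, 10.3 and 14.2 CPM in TPMCa, and 1.93 and 11.8 CPM in TPMR1. TPK was above TPM, and both were above all TPMCa and TPMR1 libraries. Its log2 difference between TPK and the mean of TPMCa and TPMR1 was 4.86 (SE 0.70, adjusted p = 0.00794 from edgeR), and the call held in all 15 alternative fits. Against TPM, TPMCa had a value of -3.09 (SE 0.86, edgeR adjusted p = 0.106) and TPMR1 one of -3.94 (SE 0.90, edgeR adjusted p = 0.0564). DESeq2 gave adjusted p of 0.00330 and 6.15e-05 for the same differences.

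Pmaip1 (Noxa), a BH3-only protein that opposes Mcl1, was at 81.1 and 104 CPM in TPK, 103 and 35.1 CPM in TPM, 24.6 and 21.1 CPM in TPMCa, and 8.79 and 19.2 CPM in TPMR1. It was higher in TPK than in the mean of TPMCa and TPMR1 by 2.37 (SE 0.47, adjusted p = 0.0219 from edgeR), but not without either TPK or either TPMCa library (adjusted p up to 0.151 without TPK replicate 2). Aen, an exonuclease that degrades DNA during apoptosis, had replicates close together in every model. Its level was 80.0 and 84.9 CPM in TPK, 65.4 and 64.0 CPM in TPM, 25.8 and 33.3 CPM in TPMCa, and 42.2 and 44.4 CPM in TPMR1, without overlap between any 2 models. Aen was 2.30-fold higher in TPK than in the mean of TPMCa and TPMR1 (log2 1.20, SE 0.20, adjusted p = 0.0120 from edgeR), with adjusted p of 0.0722 and 0.106 when TPK replicate 1 or 2 was left out.

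The other 9 apoptosis genes passed in no comparison by edgeR with all 8 libraries or by DESeq2. Bax, the pore-forming effector of mitochondrial death, lay between 45.1 and 86.7 CPM, with all models overlapping except that both TPMR1 libraries were above both of TPM. Bbc3 (Puma), a BH3-only activator, lay between 13.2 and 37.9 CPM and was lower in both TPK libraries (15.7 and 13.2 CPM) than in all TPMCa and TPMR1 libraries (log2 -0.91, SE 0.39, adjusted p = 0.167 from edgeR). Fas, the death receptor, was at 0.887 and 5.61 CPM in TPMR1 and at 7.23 to 18.5 CPM elsewhere (log2 -2.03 from TPM, SE 0.86, adjusted p = 0.219 from edgeR). Apaf1, the apoptosome scaffold, was higher in both TPMCa libraries (42.2 and 53.5 CPM) than in any other (23.4 to 34.8 CPM). Eda2r, a receptor of the TNF family, was at 0.231 and 27.3 CPM in the TPMR1 libraries, which were also the lowest and highest of all 8. Ei24, an endoplasmic reticulum membrane protein, was at 288 CPM in TPMR1 replicate 1 and 55.1 to 144 CPM elsewhere. Tnfrsf10b (a death receptor), Pidd1 (the scaffold of the PIDDosome) and Trp53inp1 (a stress-induced cofactor of p53) lay at 6.92 to 24.2, 6.90 to 17.9 and 19.7 to 77.7 CPM.

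**Figure D3:**
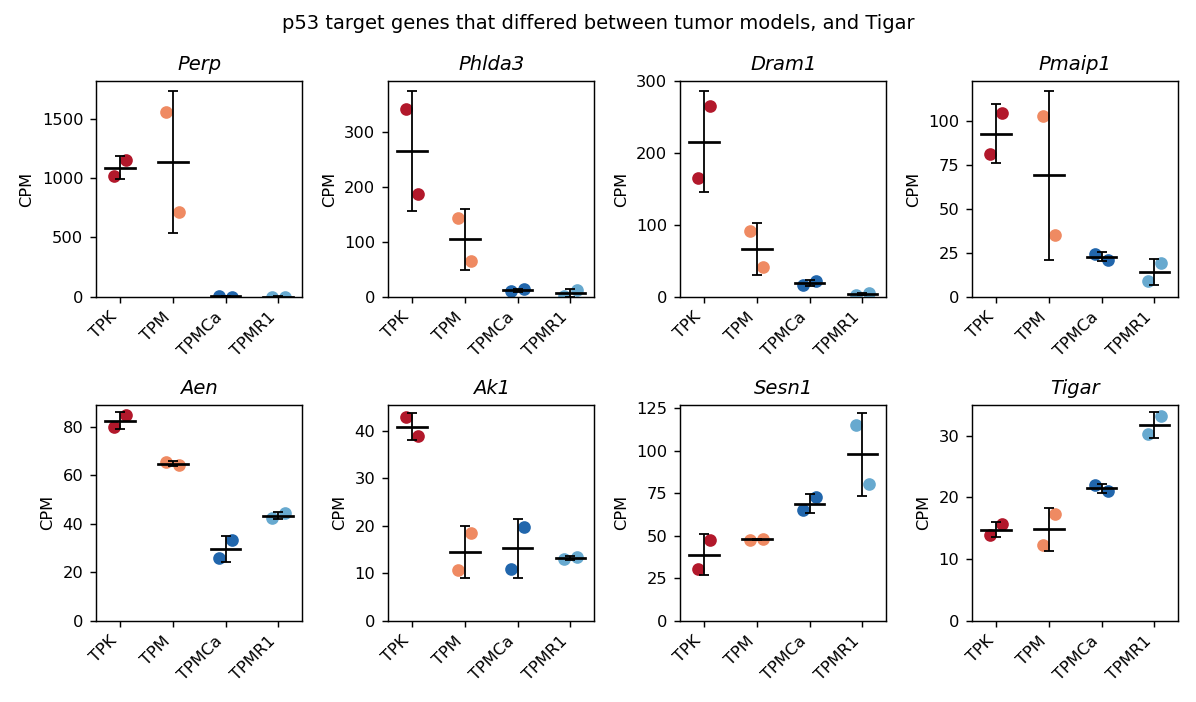
CPM (y axis, linear, with 0 shown) of the 7 genes that passed the test in TPK against the mean of TPMCa and TPMR1, and of Tigar, which did not, in each model (x axis); points are libraries, lines are the mean and bars the SD of 2 libraries. TPK lies above TPMCa and TPMR1 for Perp, Phlda3, Dram1, Pmaip1, Aen and Ak1 and below them for Sesn1 and Tigar.

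None of the 5 DNA repair genes passed in any comparison by edgeR, and DESeq2 called Xpc. Xpc, which senses bulky lesions for nucleotide excision repair, was at 34.1 and 43.7 CPM in TPM, 20.6 and 18.5 CPM in TPMCa, 23.9 and 18.1 CPM in TPMR1, and 28.6 and 28.1 CPM in TPK. The TPM libraries were above all others, at a log2 value of -0.99 in TPMCa (SE 0.30, adjusted p = 0.128 from edgeR, 0.0124 from DESeq2) and -0.88 in TPMR1 (SE 0.30, adjusted p = 0.145 from edgeR, 0.0233 from DESeq2). Its partner Ddb2 lay between 4.22 and 11.8 CPM. Polk (a translesion polymerase), Ercc5 (an excision nuclease) and Rrm2b (a subunit of ribonucleotide reductase) lay at 10.5 to 19.96, 21.4 to 30.2 and 9.56 to 21.9 CPM.

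Of the 6 genes of metabolism and stress, 3 passed in TPK against the mean of TPMCa and TPMR1 (14.4% of all genes). Dram1, a lysosomal membrane protein that promotes autophagy, lies at chr10:88322804-88379080. It was at 166 and 265 CPM in TPK, 92.2 and 40.9 CPM in TPM, 16.8 and 22.6 CPM in TPMCa, and 3.08 and 5.28 CPM in TPMR1. The 4 models did not overlap at all, in the order TPK, TPM, TPMCa and TPMR1. Dram1 fell in TPMR1 compared to TPM by 3.99 (SE 0.54, adjusted p = 0.0146 from edgeR), with an adjusted p of 0.0566 without TPM replicate 1 and of 0.0954 when only the models compared were fitted. It was higher in TPK than in the mean of TPMCa and TPMR1 by 4.57 (SE 0.42, adjusted p = 0.00190 from edgeR), in all 15 alternative fits. Between TPMR1 and TPMCa the value was -2.24 (SE 0.51, adjusted p = 0.364 from edgeR, 0.00502 from DESeq2).

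Ak1, an adenylate kinase, was at 42.9 and 38.9 CPM in TPK and at 10.6 to 19.6 CPM in all other libraries. It was 2.88-fold higher in TPK than in the mean of TPMCa and TPMR1 (log2 1.53, SE 0.36, adjusted p = 0.0361 from edgeR), with adjusted p up to 0.177 without TPK replicate 2, and likewise not past the threshold without TPK replicate 1, either TPM library or TPMCa replicate 1. Sesn1, a stress-induced inhibitor of mTORC1, ran the other way. It was at 30.4 and 47.2 CPM in TPK, 47.6 and 47.9 CPM in TPM, 65.0 and 72.6 CPM in TPMCa, and 115 and 80.4 CPM in TPMR1. Sesn1 was lower in TPK than in the mean of TPMCa and TPMR1 (log2 -1.08, SE 0.28, adjusted p = 0.0476 from edgeR), and the call held in 1 of the 8 fits that left out a library (adjusted p up to 0.235 without TPK replicate 1). Tigar, a fructose bisphosphatase that slows glycolysis, was at 30.2 and 33.3 CPM in TPMR1, 22.0 and 21.0 CPM in TPMCa, 12.3 and 17.3 CPM in TPM, and 13.9 and 15.6 CPM in TPK. TPMR1 was above all other libraries and TPMCa above TPM and TPK, with a log2 value of 1.10 in TPMR1 against TPM (SE 0.33, adjusted p = 0.107 from edgeR, 0.00355 from DESeq2). Gdf15, a stress-induced cytokine, lay between 1.71 and 11.8 CPM and Rps27l, a ribosomal protein paralog, between 67.3 and 127 CPM.

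Counted by comparison, the set did not move as a block. In TPMCa against TPM, 0 of 35 members passed in edgeR, where 3.48% of all genes did, 0.466% higher and 3.02% lower. There were 9 members at an unadjusted p under 0.05 (22.1% of all genes) and 7 by DESeq2 (16% of all genes), and 4 passed in edgeR when either TPMR1 library was left out (Perp, Btg2, Phlda3 and Aen), when 9.86% and 9.67% of all genes passed. The log2 values were positive in 16 and negative in 19, with a median of -0.06 compared to -0.01 over all genes. Their ends were Btg2 (2.37), Gdf15 (1.31) and Mdm2 (1.07) on the higher side and Perp (-8.52), Phlda3 (-3.09) and Dram1 (-1.75) on the lower side. The libraries of the models did not overlap in 9 members that were higher and 11 that were lower, where 29.1% and 32.2% of all genes did so.

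In TPMR1 against TPM, 3 of 35 members passed, all lower (Perp, Dram1 and Trp53), where 5.58% of all genes passed, 1.08% higher and 4.5% lower. The median was -0.11 compared to 0.03 over all genes, with 16 positive and 19 negative values. The highest were Btg2 (1.40), Ei24 (1.11) and Tigar (1.10), and the lowest Perp (-9.95), Dram1 (-3.99) and Phlda3 (-3.94). The models did not overlap in 5 higher and 11 lower members, where 24.5% and 28.5% of all genes did so. The count of calls rested on single libraries. It fell when any single library of TPM, TPK or TPMCa was left out, or TPMR1 replicate 1. The share of all genes that passed fell as well. Both rose without TPMR1 replicate 2. In that fit Cdkn1a, Plk3, Pmaip1, Fas and Phlda3 were added on the lower side and Ei24 on the higher side. Some of the named values changed sign, Btg2 to -0.31 without TPMR1 replicate 2 and Ei24 to -0.27 without TPMR1 replicate 1. The comparisons of TPMCa and TPMR1 with TPM share the TPM libraries, so their values are not independent.

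Between TPMR1 and TPMCa, 0 of 35 members and 0% of all genes passed in edgeR. At an unadjusted p under 0.05 there were 5 members (11.8% of all genes), and DESeq2 called Cdkn1a and Dram1 (4.86% of all genes). The log2 values were positive in 15 and negative in 20, with a median of -0.20 compared to 0.01 over all genes. Their ends were Ei24 (1.55), Ddb2 (0.81) and Eda2r (0.62), and Dram1 (-2.24), Cdkn1a (-1.82) and Plk2 (-1.48). The models did not overlap in 5 higher and 12 lower members, where 18.7% and 17.8% of all genes did so. Without TPMR1 replicate 2, 6 members and 8.24% of all genes passed, with Cdkn1a, Btg2, Plk2, Plk3 and Fas lower and Ei24 higher in TPMR1 replicate 1. In that fit the value of Eda2r became -5.22, and that of Ddb2 became -0.11 without TPMR1 replicate 1.

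TPK and TPM differed in 0 of 35 members and 0% of all genes by edgeR. There were 4 members at an unadjusted p under 0.05 (7.17% of all genes), and DESeq2 called Trp53 (1.51% of all genes). The median log2 value was 0.08 compared to 0.01 over all genes, with 19 positive and 16 negative. Dram1 (1.70), Ak1 (1.49) and Phlda3 (1.34) were at one end, and Psrc1 (-1.96), Trp53 (-1.65) and Plk3 (-1.31) at the other. The models did not overlap in 7 higher and 9 lower members, where 24.4% and 23.5% of all genes did so.

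TPK against the mean of TPMCa and TPMR1 gave the most calls. Here 7 of 35 members passed, 6 higher and 1 lower in TPK, where 14.4% of all genes passed, 10.3% higher and 4.06% lower. The higher members were 4 of the 13 apoptosis genes (Perp, Phlda3, Pmaip1 and Aen) and 2 of the 6 genes of metabolism and stress (Dram1 and Ak1), and the lower one was Sesn1. The median over the set was -0.12 compared to 0.00 over all genes, and 16 values were positive. Btg2 (-1.63), Psrc1 (-1.46) and Sesn1 (-1.08) were the lowest, and Perp, Phlda3 and Dram1 the highest. The libraries did not overlap in 8 higher and 3 lower members, where 22.4% and 18.4% of all genes did so. Leaving out any single library of TPK, TPM or TPMCa lowered the count of members, and the share of all genes that passed fell as well.

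**Figure D4:**
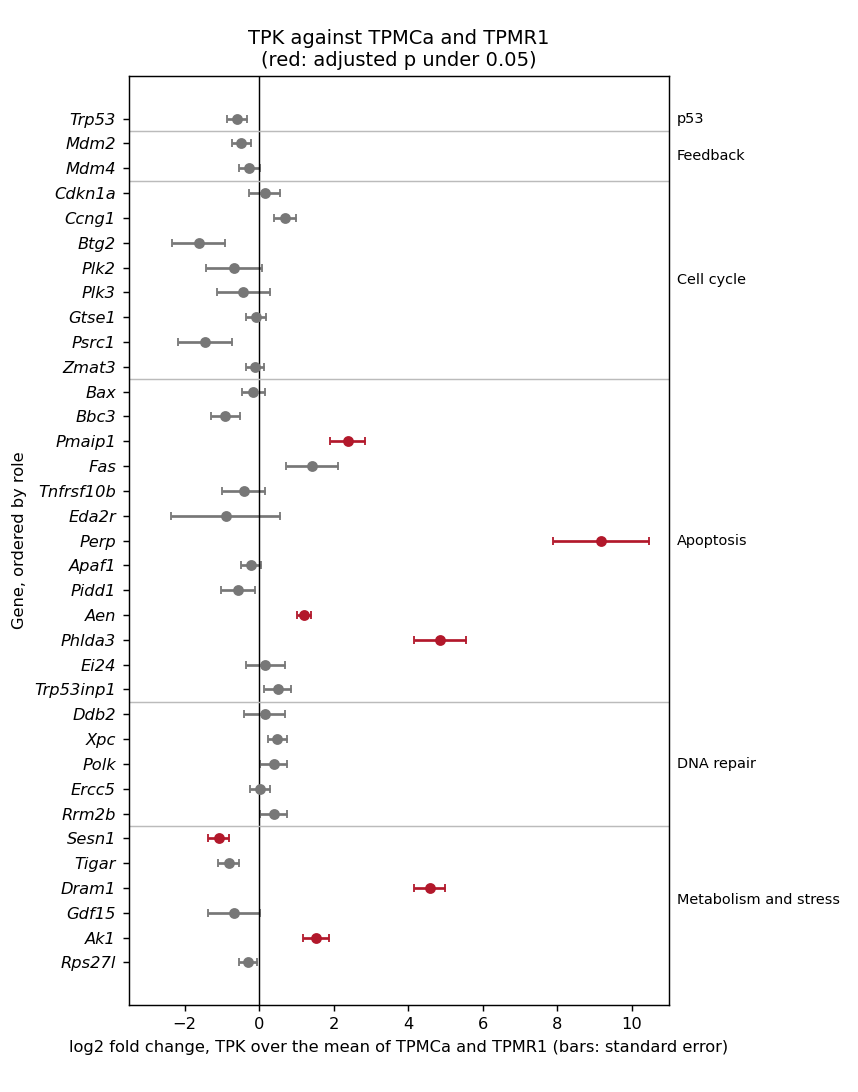
Log2 fold change of TPK over the mean of TPMCa and TPMR1 (x axis) for the 35 genes (y axis, by role); points are edgeR estimates, bars the standard error, and red marks an adjusted p under 0.05. Perp, Phlda3 and Dram1 lie beyond 4, most other genes lie near 0, and Sesn1 is the called gene on the negative side.

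The levels of the members were set beside those of the epithelial markers. Perp, Phlda3 and Dram1 were higher in each of the 4 libraries with 3282 to 5978 CPM of epithelial markers than in each of the 4 with 6.52 to 75.3 CPM. Cdkn1a did not divide in this way, since the TPMCa libraries, at 249 and 121 CPM, were above both TPK libraries. Trp53 did not either, with TPMCa above TPK. Within the TPMCa and TPMR1 libraries, TPMR1 replicate 1 had the lowest epithelial sum. It had the lowest level of the 4 libraries in 19 members, among them Perp, Phlda3, Dram1 and Cdkn1a, and the highest in 10, among them Ei24, Sesn1, Mdm4 and Ccng1. Over all genes it was the lowest in 35.3% and the highest in 35.2%. The part of cell composition in these values was not tested.

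**Figure D5:**
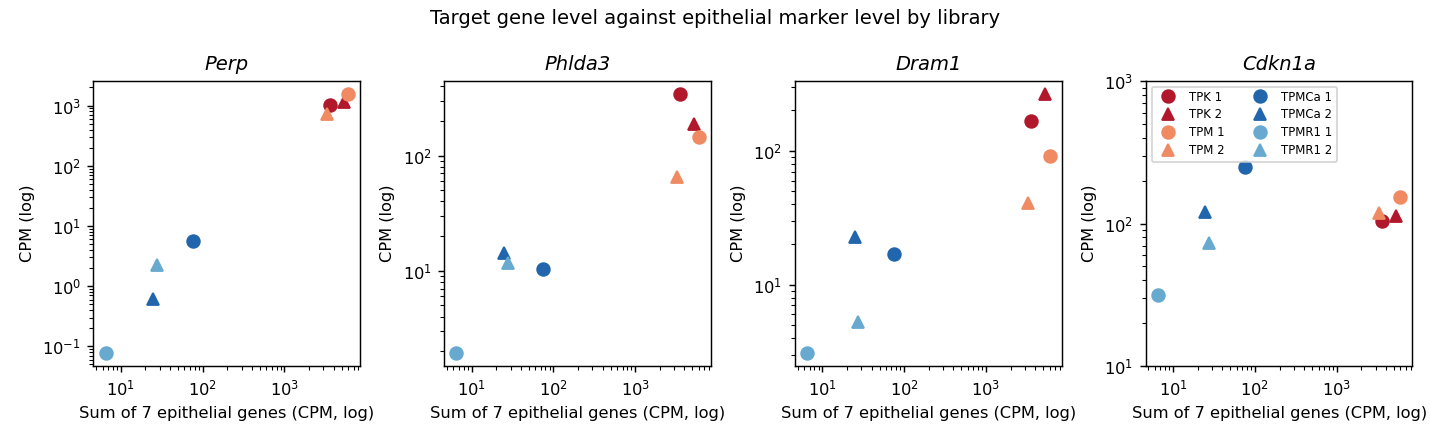
CPM of Perp, Phlda3, Dram1 and Cdkn1a (y axes, log scale) against the summed CPM of 7 epithelial genes (x axes, log scale), 1 point for each library (circles replicate 1, triangles replicate 2). TPK and TPM lie at 3282 to 5978 CPM of the marker sum and TPMCa and TPMR1 at 6.52 to 75.3 CPM; the 2 sides divide in Perp, Phlda3 and Dram1 and not in Cdkn1a.

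Per kilobase of merged exon, Perp was the most abundant member in TPM and TPK, at 581 and 557 CPM per kb, and among the least abundant in TPMCa and TPMR1, at 1.58 and 0.603 CPM per kb. Rps27l was at 106 to 144 CPM per kb in the 4 models and Bax at 34.6 to 45.9 CPM per kb. In TPMCa, Btg2 was the most abundant member at 176 CPM per kb, followed by Rps27l at 119 CPM per kb. Cdkn1a was at 52.0 CPM per kb in TPMCa and 14.7 CPM per kb in TPMR1, whereas Trp53 was at 29.3 CPM per kb in TPM and 9.30 CPM per kb in TPK.

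Replicates of TPMR1 differed more than those of the other models. Of the 35 members, 9 were over 4-fold apart between its 2 libraries, compared to 0 in TPM, 1 in TPMCa (Perp) and 1 in TPK (Gdf15). Over all genes tested, 17.1% were over 4-fold apart in TPMR1 and 4.72% to 8.15% in the other models. Eda2r was 80.1-fold apart, Perp 12.7-fold, Plk2 7.06-fold, Plk3 6.46-fold, Phlda3 5.83-fold, Fas 5.73-fold, Btg2 5.57-fold, Psrc1 4.23-fold and Ei24 4.22-fold. Ei24 was the one of these that was higher in replicate 1. The sums of gonadal and steroid-producing markers, 5210 and 729 CPM, differed between the same libraries, and their part in the gaps was not tested.

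Genes of the pathway outside the set were counted for comparison. Both relatives of p53 were higher in TPK than in the mean of TPMCa and TPMR1. Trp63, the master regulator of squamous epithelium, was at 231 and 201 CPM in TPK, 169 and 114 CPM in TPM, 0.190 and 1.11 CPM in TPMCa, and 0 and 10.4 CPM in TPMR1 (adjusted p = 0.0281 from edgeR). Trp73 was at 8.002 to 17.6 CPM in TPK and TPM and, at 0 to 3 counts in each library, under or at the floor in all TPMCa and TPMR1 libraries (edgeR adjusted p = 0.00278). Of 36 further p53 targets, 10 passed in that comparison, 7 higher and 3 lower in TPK, where 14.4% of all genes passed, 10.3% higher and 4.06% lower, and their median was -0.07 compared to 0.00 over all genes. The leading genes were Sfn, which encodes the epithelial checkpoint protein 14-3-3 sigma (log2 8.13, adjusted p = 0.00106 from edgeR), Casp1, the inflammatory caspase (3.98, adjusted p = 0.0122), and Dcxr, a carbonyl reductase (3.60, adjusted p = 0.00278). In TPMCa against TPM 1 of the 36 was higher and 3 were lower, where 0.466% and 3.02% of all genes were, and in TPMR1 against TPM 4 were lower, where 4.5% of all genes were. Sfn, Dcxr and Cx3cl1, a membrane-bound chemokine, were lower in both.

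Of 29 regulators of p53, 0 passed in the comparisons with TPM or between TPMR1 and TPMCa in edgeR, and 3 passed in TPK against the mean of TPMCa and TPMR1, where 14.4% of all genes did. For the counts of 0, up to 4 of the 29 were at an unadjusted p under 0.05 and DESeq2 called up to 3. Both were in TPMCa against TPM, where 22.1% of all genes had such a p and DESeq2 called 16%. Atr, the kinase of replication stress (log2 -1.40, adjusted p = 0.0271 from edgeR), and the deubiquitinase gene Usp2 (-2.02, adjusted p = 0.0344) were lower in TPK, and Daxx, a histone chaperone that binds Mdm2 (0.81, adjusted p = 0.0319), was higher. Of 18 cell cycle genes that p53 represses through p21 and the DREAM complex, 1 passed in TPK against the mean of TPMCa and TPMR1, which was the mitotic kinase gene Aurkb (-1.49, adjusted p = 0.0391 from edgeR). There 14.4% of all genes passed in edgeR, and DESeq2 called 9 of the 18 and 28.4% of all genes. The value of all 18 was negative, with a median of -0.94, where 49.9% of all genes were positive. In TPMCa against TPM all 18 were positive, with a median of 0.63, where 49.3% of all genes were positive. Of the 18, 0 passed in edgeR (3.48% of all genes), 3 had an unadjusted p under 0.05 (22.1%) and DESeq2 called 1 (16%). Among 11 stress response genes that other pathways also control, Nupr1, a chromatin cofactor induced by stress, was lower than in TPM in both TPMCa (log2 -4.54, edgeR adjusted p = 0.00510) and TPMR1 (log2 -4.55, edgeR adjusted p = 0.00356), and Hmox1, heme oxygenase 1, was higher than in TPM in both TPMCa (3.07, edgeR adjusted p = 0.0182) and TPMR1 (2.40, edgeR adjusted p = 0.0272).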

How the data were processed

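Total RNA was sequenced from 8 libraries, 2 for each of 4 models. According to the methods and the submitters' processing notes, the authors aligned trimmed reads to mm10 with STAR and normalized with DESeq2; versions, the counter and the annotation are not given in the sources used here. The deposited table of raw counts, whole numbers per gene, was used, and the deposited normalized table was not. Genes kept by filterByExpr were fitted in edgeR 4.0.16 (R 4.3.3, limma 3.58.1) with TMM scaling, all 8 libraries and the model as the only term, followed by quasi-likelihood F tests and Benjamini-Hochberg adjustment over 15875 genes. The standard error is derived from the F statistic. The fit was also run on simulated counts with changes in TPMCa alone, no filter and the same spread in every model. The outcome is not given here. DESeq2 1.42.0, other scalings, filters and samples, and left-out libraries were alternatives. Lengths came from GENCODE M21 merged exons. The study's figure legends give 2 mice for each model, and the labels do not state whether replicates were separate mice. If they were not, p-values may measure technical spread. The labels of replicates number them alike across models. Deviations of same-numbered libraries correlated at -0.0688 to -0.00820, which gave no sign that the numbers pair samples. Such low values cannot exclude a small shared effect, and a fit with a replicate block was an alternative.

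Members and lists were chosen with earlier results of these data known. All 35 members are named, those past the threshold with every library, and for each comparison the 3 highest and 3 lowest log2 values. From other lists, at most 3 genes past the threshold with the largest change are named. Some engineered genes are not reported here.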

Additional observations from a re-analysis of the deposited data

How the results depend on the processing

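The counts of members past the threshold depended on the test and on single libraries. Wherever leaving out 1 library raised or lowered a count, the share of all genes that passed rose or fell as well. These swings were therefore not particular to the members. For any difference between the models, edgeR gave 5, DESeq2 gave 11, scaling by library size alone 3, the fit with the replicate block 1, and fits without 1 library 0 to 11. In TPMCa against TPM, the count of 0 became 7 with DESeq2, 1 with library size alone, with no filter or with a stricter filter, 3 when only the models compared were fitted, and 0 to 4 without 1 library. In TPMR1 against TPM, the count of 3 became 8 with DESeq2, 1 with the replicate block, 0 when only the models compared were fitted, and 0 to 9 without 1 library. Between TPMR1 and TPMCa, 0 became 2 with DESeq2 and 0 to 6 without 1 library. For TPK against TPM, 0 became 1 with DESeq2. For TPK against the mean of TPMCa and TPMR1, 7 became 3 to 8 without 1 library, and 5 to 8 under the other alternatives. The replicate block moved no other of these counts by over 1.5 times; over all genes it gave 631 calls for any difference, 362 in TPMCa against TPM and 557 in TPMR1 against TPM. Fitting only the models compared gave 1264 calls over all genes in TPMCa against TPM, 53 in TPMR1 against TPM and 1451 in TPK against the mean. Over all genes, edgeR and DESeq2 called 1162 and 4765 for any difference, 553 and 2547 in TPMCa against TPM, 886 and 2867 in TPMR1 against TPM, 0 and 772 between TPMR1 and TPMCa, 0 and 240 between TPK and TPM, and 2287 and 4516 in TPK against the mean. The cause was not tested.

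No member past the threshold in either fit changed direction. Of 2430 log2 values past the threshold in neither fit, 116 changed sign. Scaling by library size alone moved the median of all genes by -0.12 in both TPK comparisons. Where a model kept 1 library, that library was assumed to vary like the others. With 2 libraries in each model and a common dispersion of 0.269, small differences could not be resolved, and all of these counts rest on the same 8 libraries.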
